A study of Mus musculus with 36 samples.

Results

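The BCL2 family of apoptosis regulators was followed through 8 days of mouse embryonic stem cell (mESC) differentiation. Its members were taken by gene symbol: 10 of the 25965 genes measured, made up of 3 anti-apoptotic genes (Bcl2, Bcl2l1 and Mcl1), 2 effectors (Bax and Bak1) and 5 BH3-only genes (Bcl2l11, Bid, Bbc3, Pmaip1 and Bik). The cells were female C57/Bl6 Xmas mESCs, in which the X chromosomes carry different fluorescent reporters, GFP and mCherry, each at the Hprt locus. Cells grown in 2i medium, which holds mESCs in the naive state, were weaned into differentiation medium with serum and no LIF, and RNA was sequenced each day from day 0 to day 8. All 9 days had 4 libraries, 36 in all, named by a line (X14 or X18) and by the word double or single. Day 0 was the undifferentiated group, and the same 4 combinations of line and label recur on every later day. What double and single stand for is not given in the labels, so the words are used as names. Differentiation was not directed to a lineage, and the RNA came from whole cultures that can hold several cell types. Values of single libraries are given below in the order X14 double, X14 single, X18 double, X18 single.

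Apoptosis through mitochondria is set by the balance between these proteins. BAX and BAK permeabilize the outer mitochondrial membrane and so release cytochrome c, BCL2, BCL-xL (from Bcl2l1) and MCL1 hold them in check, and the BH3-only proteins BIM (Bcl2l11), BID, PUMA (Bbc3), NOXA (Pmaip1) and BIK either bind the guardians or engage the effectors directly. Pluripotent stem cells are known to undergo apoptosis readily, and MCL1 is short-lived and is also regulated after transcription, so a transcript level is not a protein level.

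RefSeq promoters on GRCm38.p6 were found for 8 of the 10 members. Bik and Pmaip1 had no entry. The 250 bases before the start were searched on both strands for the GC box GGGCGG, a site of SP1-like factors, which occurs in 32.7% of 32851 promoters. It was matched 7 times in Bcl2, 5 in Bbc3, 3 in Bcl2l11, 3 in Bid, 2 in Bax, 1 in Mcl1 and 0 in Bcl2l1 and Bak1. The FOXO site TGTTTAC, found in 3.17% of promoters, was matched in Bcl2l11 alone of the 8. A match is a description of the letters and not evidence of binding. The 200 bases before the start are shown for Bcl2l11, Bbc3, Bcl2 and Mcl1, in this order. Bcl2l11 and Bbc3 were the members called higher in the step from day 3 to day 4. Reads of Bcl2 were rare before day 5, and Mcl1 had the largest fall by day 8. The sequences run 5′ to 3′ on the strand of the gene, with GC boxes of either strand in capitals. They lie at chr2:128125838-128126037 (+ strand), chr7:16309383-16309582 (+ strand), chr1:106714291-106714490 (- strand) and chr3:95658521-95658720 (+ strand).
Bcl2l11: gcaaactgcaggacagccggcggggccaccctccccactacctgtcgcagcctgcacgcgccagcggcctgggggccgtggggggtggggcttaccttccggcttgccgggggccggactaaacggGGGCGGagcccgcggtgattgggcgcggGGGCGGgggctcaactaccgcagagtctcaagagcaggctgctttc
Bbc3: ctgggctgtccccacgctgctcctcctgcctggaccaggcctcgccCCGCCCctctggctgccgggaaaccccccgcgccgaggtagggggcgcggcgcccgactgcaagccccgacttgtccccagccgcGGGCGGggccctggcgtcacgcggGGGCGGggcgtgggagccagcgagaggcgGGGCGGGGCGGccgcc
Bcl2: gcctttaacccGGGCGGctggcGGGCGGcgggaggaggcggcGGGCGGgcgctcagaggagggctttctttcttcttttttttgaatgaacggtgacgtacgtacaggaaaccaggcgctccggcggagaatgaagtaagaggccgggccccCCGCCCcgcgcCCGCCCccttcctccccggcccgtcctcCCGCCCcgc
Mcl1: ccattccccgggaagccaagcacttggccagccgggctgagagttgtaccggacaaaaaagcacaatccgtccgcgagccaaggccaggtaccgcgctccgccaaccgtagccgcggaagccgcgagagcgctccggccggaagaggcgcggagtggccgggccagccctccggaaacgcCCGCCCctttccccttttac

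The libraries held 612740 to 2445826 reads in genes, with a median of 1297944.5. RPM is the unit of reads scaled to the total of the library, here 769304 to 2877877 as recovered from the deposited values. By these totals a gene with 3 reads stands at 1.04 to 3.90 RPM. These depths limited Bcl2 and Bik, which had under 3 reads in 25 and 16 of the 36 libraries. The other 8 members had at least 7 reads in each library. As checks of the labelled cells, the 7 mESC markers (Pou5f1, Nanog and others) summed to 1457 to 1974 RPKM (RPM per kilobase of gene) on day 0 and 129 to 311 on day 8, and all 7 were lower. Of the markers of trophoblast or surface epithelium, 4 of 5 tested were higher on day 8, with a summed level of 1325 to 2958 RPKM against 2.21 to 6.87 on day 0, mostly from the keratins Krt8 and Krt18. Fibroblast markers rose from 0.156 to 3.92 RPKM to 17.7 to 26.9 (4 of 5 higher), and blood markers were at 0 on day 8. A fall or rise below can therefore come from fewer or more cells of a type or from less or more RNA per cell, which cannot be told apart in whole cultures.

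The X14 libraries of day 0 went against their labels. The median level of 569 X-linked genes relative to 14042 autosomal genes was higher in double than in single by 0.41 to 1.31 (log2) on days 1 to 8 in X14 and by 0.26 to 1.13 on all days in X18, but lower by 1.35 in the library labelled X14 double on day 0. Calls of members that changed without those libraries are given with and without them. Day 0 then holds the X18 libraries alone, so in the fits of days each change from day 0 also sets X18 against both lines. An exchange of labels within day 0 would leave the mean of that day unchanged, so it gives no reason to prefer those fits for the days. The libraries of a culture were taken over time and are not independent, and nothing in the labels says that the 4 cultures were derived separately on each day, so p-values measure the spread between these libraries.

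Over the 9 days, 8 of 10 members varied with the day (limma's moderated F, Benjamini-Hochberg adjusted p under 0.05 over 14612 genes), where 65.2% of all genes did. The exceptions were Bak1 (adjusted p = 0.0685) and Bid (adjusted p = 0.58). Bak1 passed with the replicate number as a block (adjusted p = 0.0211) and without the X14 libraries of day 0 (adjusted p = 0.0131). Each later day was then set against day 0. By limma, 0 members were called on day 1 and 0 on day 2 (1 and 2 at an unadjusted p under 0.05, and 0 by voom on both days), when 0.0684% and 4.29% of all genes were called. With the X14 libraries of day 0 left out, 1 and 2 members were called on these days, beside 8.23% and 30.6% of genes. The count over all libraries was 3 on day 3, when 13.4% of all genes were called, and 5 on day 4 (25.8%). Days 5 and 6 had 6 members each, beside 35.8% and 44.3% of genes, and days 7 and 8 had 7 each, beside 46.3% and 45.7%. The calls of days 5 to 7 and of the F test include Bcl2, whose tests depend on the value written for 0 reads. All calls up to day 6 were higher, but scaling to the upper quartile or voom added 2 lower on day 6. The median log2 change of the 9 members other than Bcl2, which was mostly at 0 reads, was 0.52 on day 4 against 0.12 for all genes, 1.16 against 0.24 on day 6, and 1.16 against 0.23 on day 8. On day 8, 5 members were higher, where 29.2% of all genes were, and 5 changed at least 2-fold, where 35.0% did. Scaling the libraries to their upper quartile lowered every change on day 8 by the same amount and brought the median of all genes from 0.23 to 0.02, with the same 5 members higher and 2 lower. The level of each member in each library is shown in the plot of RPKM by day.

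**Figure D1:**
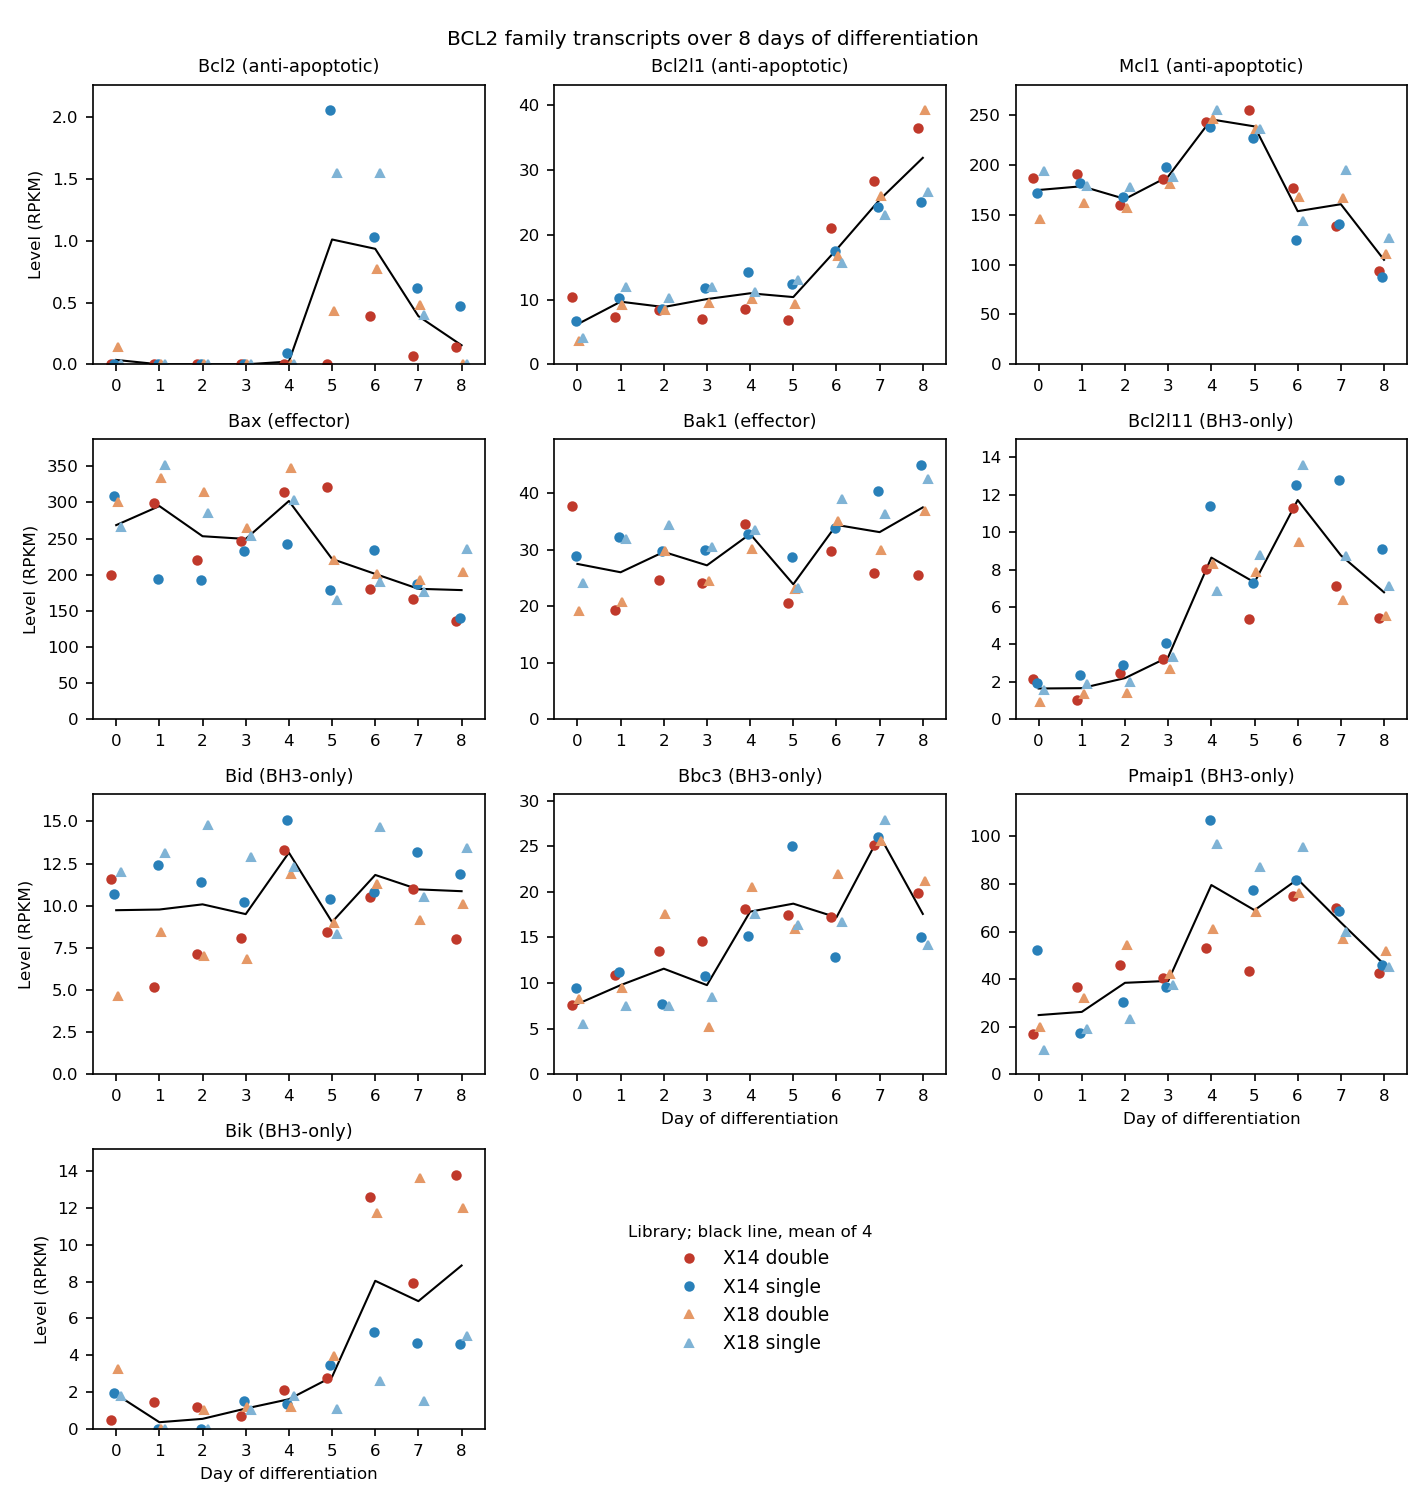
Level (RPKM) of the 10 members by day, with 1 point for each library (circles X14, triangles X18, red and orange double, blue single) and a black line through the mean of 4; each panel has its own scale from 0. Bcl2l1 climbs to 31.9 RPKM on day 8, Bcl2l11 peaks at 11.7 on day 6, Mcl1 peaks at 246 on day 4, and Bcl2 stays at or near 0 until day 5.

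Among the anti-apoptotic genes, Bcl2l1 rose and Mcl1 rose and then fell. Bcl2l1, which encodes BCL-xL, stood at 10.4, 6.66, 3.59 and 4.1 RPKM on day 0 and at 36.5, 25.1, 39.3 and 26.7 on day 8. The groups did not overlap from day 6 on, and the mean rose from 6.18 ± 3.11 to 31.9 ± 7.03 RPKM (SD, n = 4). The log2 change was 2.47 (SE 0.26, adjusted p = 2e-09). A first, smaller gain was called on days 3 to 5 (log2 change 0.80, 0.93 and 0.83, adjusted p = 0.0355, 0.00731 and 0.0116). Without the X14 libraries of day 0, where Bcl2l1 was higher than in those of X18, it was called from day 1 (log2 change 1.31, SE 0.26, adjusted p = 0.00292). That fit sets X18 alone on day 0 against both lines on day 1. The calls of days 3 to 5 were lost without replicate 2, 3 or 4 (adjusted p = 0.0647 to 0.368). Between single days, Bcl2l1 rose by 0.81 from day 5 to day 6 (adjusted p = 0.0328), a step that was lost without replicate 1, 2 or 3 (adjusted p = 0.0876 to 0.175).

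Mcl1 was by far the most abundant of the guardians at every day. It measured 187, 172, 146 and 194 RPKM on day 0, 243, 238, 246 and 255 on day 4, and 93.6, 87.4, 111 and 127 on day 8. All 4 libraries of day 4 lay above, and all 4 of day 8 below, those of day 0. The log2 change was 0.50 on day 4 (SE 0.14, adjusted p = 0.00748), and 0.46 a day later (adjusted p = 0.0101), both lost without replicate 3 (adjusted p = 0.135 and 0.129). By day 8 it was −0.75 (adjusted p = 5e-05). Of the steps in the fall, those into day 6 (−0.65, adjusted p = 0.00165) and into day 8 (−0.62, adjusted p = 0.0244) were called. The second step was not called when any replicate number was left out (adjusted p = 0.106 to 0.384).

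Bcl2 itself was barely transcribed in mESCs. It had 1 read in the 4 libraries of day 0 and 0 reads in the 12 libraries of days 1 to 3, which together allow a level of up to 0.0224 RPKM. On day 5 it had 0, 18, 5 and 32 reads, or 0, 2.06, 0.434 and 1.55 RPKM, and on day 6 0.393, 1.03, 0.769 and 1.55 RPKM. Every library of day 6 was above those of day 0, while on day 5 the X14 double library, the shallowest of all, remained at 0. The pooled RPM were 55 times those of day 0 on day 5 (95% exact counting interval 9.47 to 2212, from 55 reads and 1 read) and 42.4 times on day 6 (7.16 to 1720.2). By day 8 the level had fallen to 0.144, 0.473, 0 and 0 RPKM. The pooled RPM were then 9.74 times those of day 0 (1.35 to 427, from 9 reads and 1 read), after 15.9 times on day 7 (2.42 to 672). Limma called Bcl2 on days 5, 6 and 7 (adjusted p = 2.8e-04, 7.6e-05 and 0.0168) and not on the last day (adjusted p = 0.148). Its fitted fold, which is not quoted, and these p-values depend on the 0.9 read written for a gene without reads. Bcl2 also passed the filter on low values mostly through days 5 to 8, so these calls add no support to the read counts. The day 7 call was lost without the X14 libraries of day 0 (adjusted p = 0.171) and without replicate 2, 3 or 4 (adjusted p = 0.142, 0.0813 and 0.0736).

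Counted as shares of the summed RPKM of the 3 guardians, Mcl1 held 96.6% ± 1.44 on day 0 and 76.4% ± 4.69 on day 8 (SD, n = 4), and Bcl2l1 3.37% ± 1.46 and 23.5% ± 4.69. The Bcl2l1 share lay between 2.07% and 5.27% on day 0 and between 17.4% and 28% on day 8. The sum went from 181 ± 22.7 RPKM on day 0 through 257 ± 6.77 on day 4 to 137 ± 18.8 on day 8. These are descriptions with no test. The plot of each role's make-up sets them beside the other members.

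**Figure D2:**
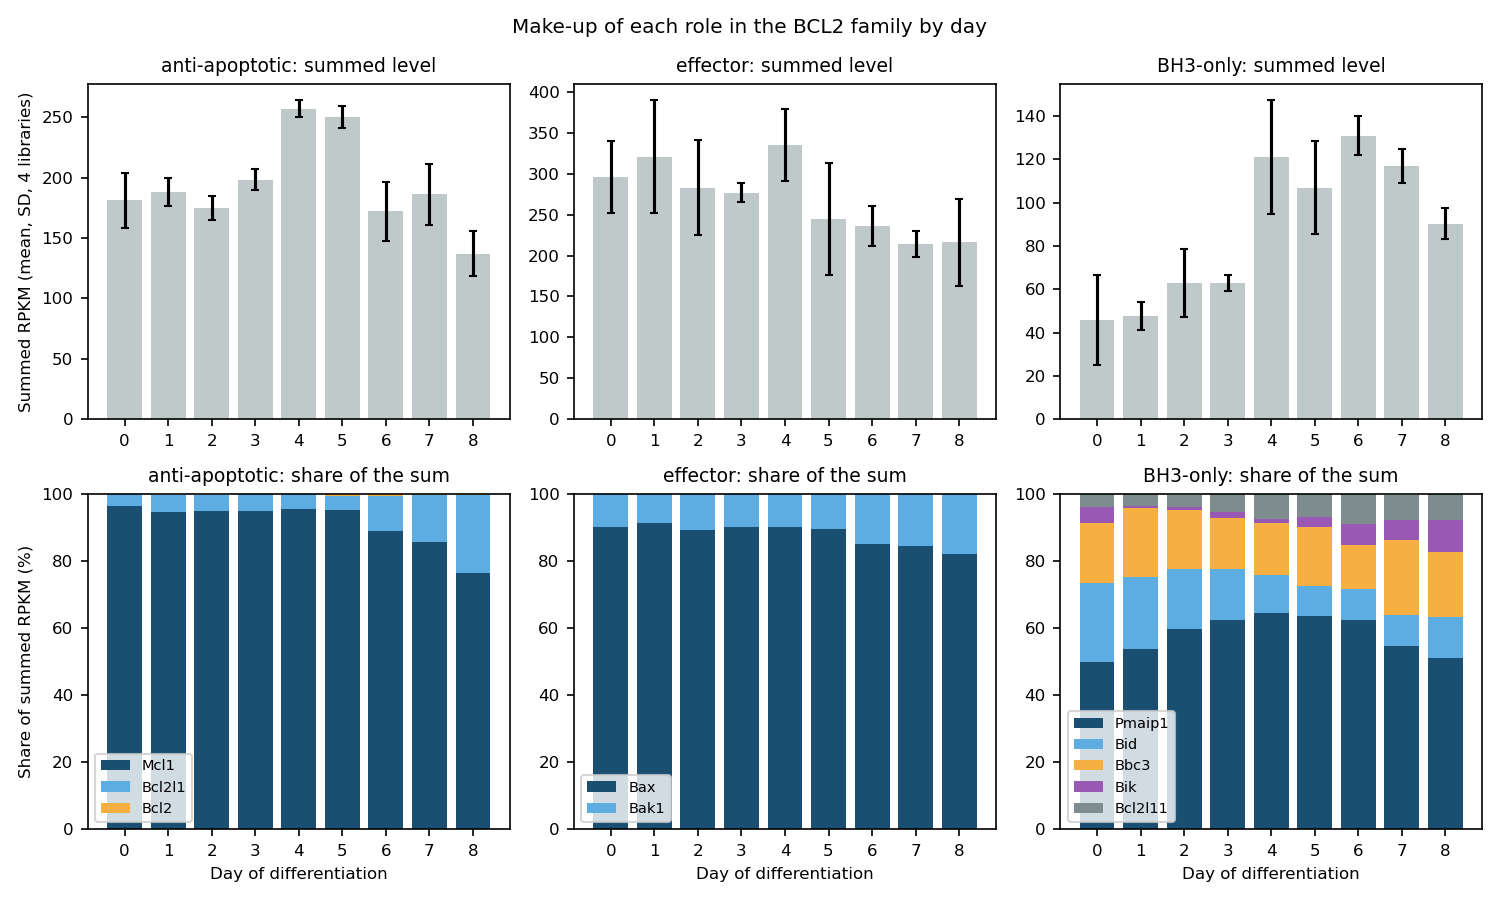
Upper panels, summed RPKM of the anti-apoptotic, effector and BH3-only members by day (bars, mean of 4 libraries; whiskers, SD); lower panels, the mean share of that sum held by each member in percent. The Bcl2l1 share of the anti-apoptotic sum widens from 3.37% to 23.5%, and the BH3-only sum steps from 62.9 RPKM on day 3 to 121 on day 4.

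Of the effectors, Bax was lower late, and the call of Bak1 on day 8 depended on a replicate block or on which libraries were in the fit. Bax was among the most abundant members, at 199, 309, 300.4 and 266 RPKM on day 0 and at 136, 139.8, 204 and 235 on day 8. These groups overlapped, although each day 8 library was below the day 0 library of its number. On day 7 the values, 166, 187, 193 and 176 RPKM, were all below those of day 0. The log2 changes of days 7 and 8 were −0.56 and −0.61 (SE 0.21, adjusted p = 0.0302 and 0.0186). After quantile normalization they were −0.11 and −0.22 and were not called. The day 7 call was also lost without replicate 2, 3 or 4 (adjusted p = 0.0876, 0.137 and 0.101) and the day 8 call without replicate 2 or 3 (adjusted p = 0.152 and 0.0785). The variation of Bax over the 9 days was not called without replicate 3 or 4 (adjusted p = 0.126 and 0.0579). The exons of Bax share 192 bases (12.2%) with Gm45808 on the same strand, where reads cannot be told apart.

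Bak1 ran the other way, from 37.7, 28.9, 19.2 and 24.1 RPKM on day 0 to 25.5, 45, 36.9 and 42.5 on day 8. The X14 double library fell and the other 3 rose. The log2 change of 0.46 (SE 0.20) was not called without a block (adjusted p = 0.0633) and was called with the replicate number as a block (adjusted p = 0.0319). Without the X14 libraries of day 0 it was 0.77 (adjusted p = 0.00605), and Bak1 was then also called on days 4, 6 and 7 (0.60, 0.67 and 0.60, adjusted p = 0.0366, 0.0153 and 0.0289) and in the step into day 6 (0.53, adjusted p = 0.0473). Leaving out replicate 1 had it called on days 6, 7 and 8 (adjusted p = 0.0121, 0.0155 and 0.0014). Bak1 made up 9.7% ± 4.32 of the effector sum on day 0 and 17.7% ± 4.46 on day 8. Its exons share 614 bases (25.5%) with Ggnbp1 on the other strand, and whether reads were counted by strand is not stated, so reads of that gene, at 4.14 RPKM on day 0 and 5.44 on day 8, cannot be told apart there.

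Of the 5 BH3-only genes, 4 rose and Bid was not called on any day. Bcl2l11, encoding BIM, had the strongest day dependence of the family (F = 28.1, adjusted p = 2.5e-11). It stood at 2.13, 1.96, 0.896 and 1.59 RPKM on day 0 and at 3.24, 4.05, 2.66 and 3.34 on day 3. The next day it measured 8.04, 11.4, 8.28 and 6.84 RPKM, and by day 6 11.3, 12.5, 9.47 and 13.6. From day 3 to day 8 every library was above all 4 of day 0. The log2 change was 1.07 on day 3 (SE 0.30, adjusted p = 0.0171) and 2.44 a day later (adjusted p = 1.9e-07). It reached 2.89 on day 6 (adjusted p = 2.8e-09) and ended at 2.09 (adjusted p = 9.6e-07). The day 3 call was lost without replicate 2, 3 or 4 (adjusted p = 0.0615, 0.159 and 0.147). The step from day 3 to day 4 measured 1.37 (SE 0.30, adjusted p = 0.00333). All 4 cultures gained a similar amount from days 1 and 2 to days 7 and 8, with log2 changes of 1.94, 2.04, 2.09 and 2.03.

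Pmaip1, encoding NOXA, was the most abundant BH3-only transcript and followed the same course. It measured 17, 52.3, 19.8 and 10.3 RPKM on day 0 and 53.1, 107, 61.1 and 97 on day 4. By day 6 it stood at 74.8, 81.6, 76 and 95.6 RPKM, and by day 8 at 42.4, 45.9, 51.6 and 45. The X14 single library of day 0 stood above the other 3 of that day and above all 4 of day 8, which in turn lay above the other 3 of day 0. The log2 changes of days 4, 6 and 8 were 1.88, 1.98 and 1.16 (SE 0.32, adjusted p = 3.3e-05, 7e-06 and 0.00335). Without the X14 libraries of day 0 they were 2.41, 2.51 and 1.69, and Pmaip1 was then called from day 2 on (1.35, adjusted p = 0.002). The day 8 call was lost without replicate 4 (adjusted p = 0.0551), and that of day 3 without replicate 1, 3 or 4 (adjusted p = 0.0999, 0.293 and 0.354).

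Bbc3, encoding PUMA, measured 7.6, 9.45, 8.19 and 5.53 RPKM on day 0, 18.1, 15.1, 20.5 and 17.6 on day 4, and 25.1, 26, 25.6 and 27.9 on day 7. From day 4 to day 8 no library overlapped with day 0. The log2 changes of days 4, 7 and 8 were 1.23, 1.79 and 1.20 (SE 0.27, adjusted p = 7.5e-04, 1.6e-06 and 4e-04). As for Bcl2l11, the step from day 3 to day 4 was called (log2 change 0.96, adjusted p = 0.0229), although not without replicate 3 or 4 (adjusted p = 0.335 and 0.138). For Pmaip1 that step measured 0.96 as well and missed the threshold (adjusted p = 0.0722), but passed without the X14 libraries of day 0 (adjusted p = 0.0189).

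Bik rose last and from few reads. It had 1, 4, 3 and 2 reads on day 0 (0.491, 1.96, 3.27 and 1.81 RPKM), and 21, 4, 16 and 4 reads on day 6. On day 8 the 25, 9, 13 and 4 reads gave 13.8, 4.64, 12 and 5.05 RPKM, all above day 0. The pooled RPM were 5.52 times those of day 0 (95% exact counting interval 2.77 to 12.2), and the log2 change was 2.35 (SE 0.58, adjusted p = 0.00125). Without the X14 libraries of day 0 it was 1.70 (adjusted p = 0.034), and the calls of day 6 and day 7 (adjusted p = 0.00362 and 0.0126) were lost. They were also lost without replicate 1 (adjusted p = 0.102 and 0.189).

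Bid, which links death receptors to mitochondria once caspase 8 has cleaved its protein, stayed between 4.63 and 15.1 RPKM throughout. Day 0 measured 11.6, 10.7, 4.63 and 12 RPKM and day 8 8.04, 11.9, 10.1 and 13.4, and the groups overlapped on every day. The log2 change on day 8 was 0.23 (SE 0.29, adjusted p = 0.549) and turned to −0.07 without replicate 3, −0.16 after quantile normalization and −0.11 with voom (limma's count-based weights). Bid shares 628 exonic bases (17.7%) with Bcl2l13 on the other strand, which was at 7.97 RPKM on day 0 and 16.2 on day 8. Reads of the 628 bases cannot be told apart either.

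The summed RPKM of the BH3-only genes went from 45.8 ± 20.6 on day 0 and 62.9 ± 3.83 on day 3 to 121 ± 26.2 on day 4 (SD, n = 4). It was 131 ± 8.8 by day 6 and 90.3 ± 7.05 by day 8. Pmaip1 supplied 49.8% of it on day 0, 64.6% on day 4 and 51.2% on day 8, and Bcl2l11 3.9%, 7.29% and 7.61%. Across the 9 day means of the log2 values, Bcl2l11 ran with Pmaip1 (r = 0.96) and Bbc3 (r = 0.89), while Bcl2l1 ran with Bik (r = 0.84) and against Bax (r = −0.83). These coefficients describe 9 points from the same libraries and depths. Outside the family, the tested genes with the most similar course to Bcl2l11 were Cxcl12 (r = 0.994), Sema6a (r = 0.993) and Igsf9 (r = 0.992), and to Bcl2l1 they were Eri3 (r = 0.988), Phc2 (r = 0.982) and Tmem115 (r = 0.98). These were picked as the highest r of all genes tested, so values near the top of the scale come with the choice. Cxcl12 and Sema6a stood at only 0.0544 and 0.0264 RPKM on day 0.

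The course of the calls is drawn in the plot of changes from day 0. On day 4 the 5 called members, Bcl2l11, Pmaip1, Bbc3, Bcl2l1 and Mcl1, were all higher, where 16.3% of all genes were called higher. Neighbouring days were also compared. The steps into day 2 and into day 3 had 0 members, where 0.0411% and 0.198% of genes were called. The step into day 4 had 2 (Bcl2l11 and Bbc3, beside 5.63% of genes). The step into day 5 had 1 (Bcl2, 16.0%), a call that depends on the value written for 0 reads. The step into day 6 had 2 (Bcl2l1 up and Mcl1 down, 13.9%). The step into day 7 had 0 (1.3%), and the last had 1 (Mcl1, 0.5%). At an unadjusted p under 0.05 the 3 steps with 0 calls had 0, 1 and 3 members, and voom called 0 in each.

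**Figure D3:**
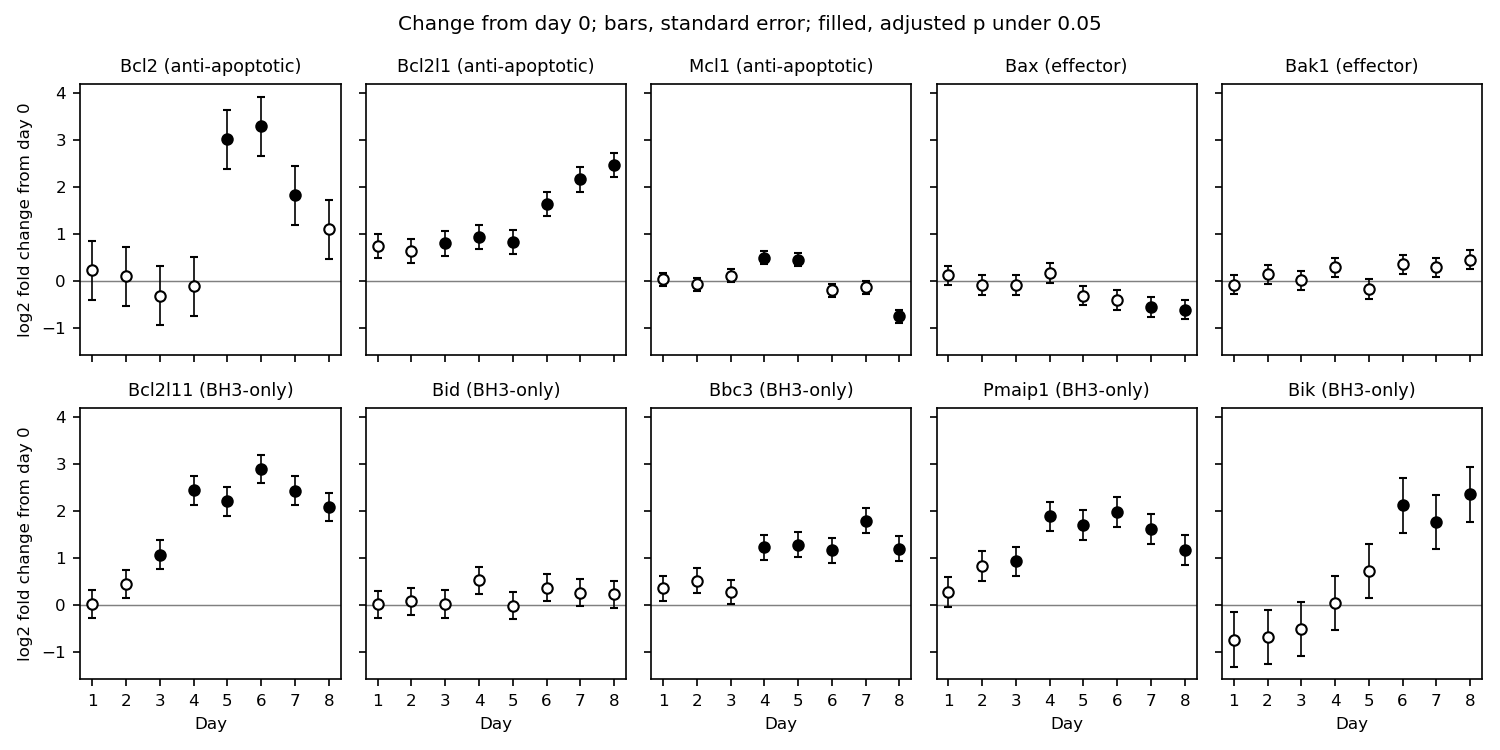
Log2 fold change of each member from day 0 on days 1 to 8 (points, limma estimate; bars, standard error; filled points, adjusted p under 0.05; all panels on a common scale). Bcl2l11, Pmaip1 and Bbc3 are filled from day 3 or 4 to day 8, Bcl2l1 from day 3, Bik from day 6, Bcl2 on days 5 to 7, and Bak1 and Bid on no day; the Bcl2 estimates depend on the value written for 0 reads.

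The second comparison was between libraries labelled double and single, over all days with day and line as covariates. Bid, Bcl2l11 and Bak1 were lower in double, 3 members where 15.7% of all genes were called in either direction and 8.62% were called lower. The other pro-apoptotic members did not share this direction and were not called by limma on the deposited values. Their log2 differences were 0.67 for Bik, 0.21 for Bbc3, 0.10 for Bax and −0.001 for Pmaip1. With voom, 4 members were called, 3 lower and 1 higher in double, and the difference of Bik was 1.01. Bid was lower by a log2 difference of −0.47 (SE 0.11, adjusted p = 0.00364), Bcl2l11 by −0.42 (SE 0.12, adjusted p = 0.0124) and Bak1 by −0.29 (SE 0.08, adjusted p = 0.0131). Averaged over the days, Bid measured 9.24 RPKM in X14 double and 11.8 in X14 single, and 8.7 and 12.4 in X18. Bcl2l13, whose exons overlap with those of Bid, differed by −0.26 and was not called (limma, adjusted p = 0.102). The single library was above the double library on 8 of 9 days in both lines for Bid and for Bcl2l11, and on 7 of 9 days in X14 and 9 of 9 in X18 for Bak1. In X14 the exceptions for Bid and Bcl2l11 fell on day 0, whose libraries went against their labels.

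Without those X14 libraries, 5 members were called, where 24.4% of all genes were. Bid (−0.51, adjusted p = 6.1e-04), Bcl2l11 (−0.45, adjusted p = 0.00315) and Bak1 (−0.33, adjusted p = 4.5e-04) were lower in double, and Bik was higher (0.82, adjusted p = 0.00615). The fifth call was Bcl2, lower in double (adjusted p = 0.0482), but Bcl2 had 0 reads in 21 of the 36 libraries and its test depends on the value written for them. Over all days Bcl2 averaged 0.0674 RPKM in double and 0.474 in single in X14, and 0.203 and 0.388 in X18. In the fit of all libraries Bik differed by 0.67, and neither Bik nor Bcl2 was called (adjusted p = 0.0695 and 0.0698). Bik had 0 reads in 5 of the 36 libraries, so its differences depend in part on the value written for 0 reads too. Within the lines, which share no culture, the Bid difference was −0.39 in X14 (adjusted p = 0.274) and −0.55 in X18 (adjusted p = 0.0441), that of Bcl2l11 −0.47 and −0.37 (adjusted p = 0.265 and 0.17), and that of Bak1 −0.33 and −0.25 (adjusted p = 0.279 and 0.0711). The directions were the same in both lines, and the calls rest on the lines together. Leaving out a replicate number takes 1 label from 1 line, so the label difference then comes from the other line and repeats its estimate. Without replicate 2, 3 or 4 none of the 3 was called (adjusted p = 0.0874 to 0.338), and without replicate 1 Bid alone of the 3 was. With 1 culture for each line and label, a difference between labels cannot be told apart from a difference between these cultures.

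Bik differed most between the labels late, as the plot of both labels by line shows. On day 6 it measured 12.6 and 11.7 RPKM in the double libraries of X14 and X18 and 5.24 and 2.63 in the single ones. On day 7 these were 7.95 and 13.6 against 4.69 and 1.52, and on day 8 13.8 and 12 against 4.64 and 5.05. The double libraries were above both single libraries on all 3 days. Bik had 0 reads in each library labelled single on days 1 and 2, so its change from those days depends on the value written for 0 reads. The label difference in the change from days 1 and 2 to days 7 and 8 was 1.12 for Bik (SE 0.70, adjusted p = 0.458) and was not called. By this limma test 0 members differed between the labels (1 at an unadjusted p under 0.05, 0 by voom), where 2.22% of all genes did. Pmaip1 gained 0.41 and 0.38 in the double cultures and 1.30 and 1.29 in the single cultures of X14 and X18, a difference of −0.90 (SE 0.40, adjusted p = 0.253) that was called only when the X14 libraries of day 0 were left out of the fit (SE 0.20, adjusted p = 0.00813). Its double libraries were above the single ones on days 1 and 2 in both lines and below them on days 4 to 6.

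**Figure D4:**
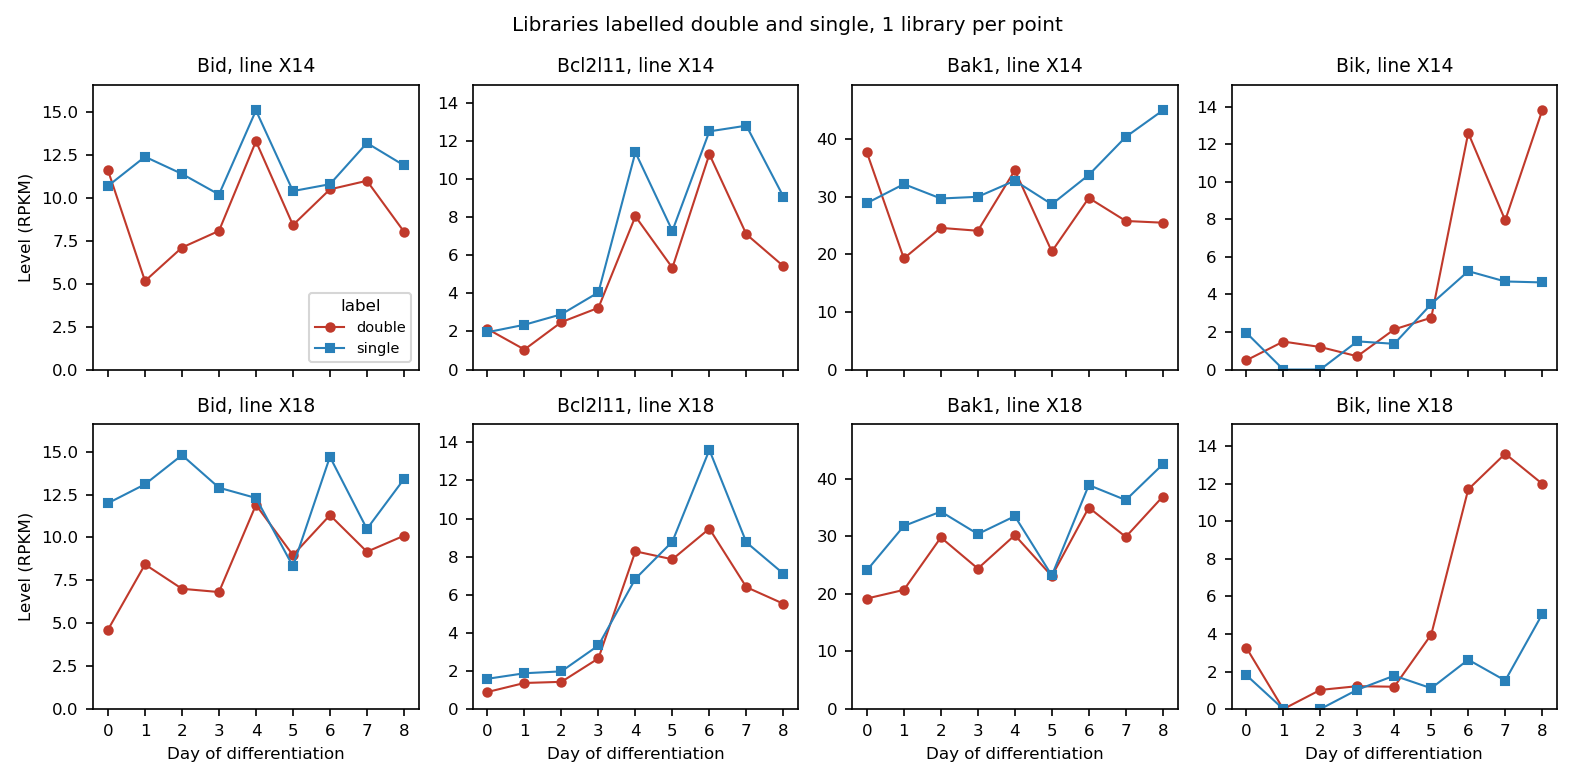
RPKM by day of Bid, Bcl2l11, Bak1 and Bik in line X14 (upper panels) and line X18 (lower panels), with red circles for the library labelled double and blue squares for the library labelled single, 1 library per point. Single lies above double for Bid and Bcl2l11 on 8 of 9 days in each line, while Bik is higher in double from day 6 to day 8.

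Between the lines, 0 members differed over all days (X18 against X14, where 0.0205% of all genes did), and 0 differed in their change over time (0.00684%). At an unadjusted p under 0.05 these limma tests had 2 members (Bcl2l11 and Bax) and 1 (Mcl1), and voom called 0 in each. The smallest adjusted p for the lines was 0.242, for Bax, which was higher in X18 by 0.21 (SE 0.09).

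The rest of the pathway was read from 6 lists of genes around the family. On day 8, 45.7% of all genes tested were called and 29.2% were higher (49.7% called without the X14 libraries of day 0), which the counts below are read against. Of the other BCL2 relatives, 11 of 15 were tested and on day 8 4 were higher and 2 lower (4 and 1 without the X14 libraries of day 0), a share near that of all genes. Bmf, another BH3-only gene, rose from 2.61 to 13.3 RPKM (log2 change 2.72, SE 0.43, adjusted p = 3.8e-06). Bcl2l13 and the mitophagy receptor Bnip3l were also higher (1.16 and 0.64, adjusted p = 5.6e-04 and 0.0117), while Bcl2l14 fell from 5.45 to 0.425 RPKM (−3.64, adjusted p = 9.5e-06). The haematopoietic Bcl2a1 copies and Bcl2l10 did not pass the filter on low values.

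Downstream of mitochondria, 4 of 10 genes of the caspase cascade were higher on day 8 and 2 lower, where 45.7% of all genes were called. Apaf1, which builds the apoptosome with cytochrome c, rose from 4.4 to 10 RPKM (log2 change 1.36, SE 0.36, adjusted p = 0.00267). Casp6 was also higher (0.82, adjusted p = 0.00299). Of 10 genes of mitochondrial release and caspase inhibition only the nuclease gene Endog was called, lower (−0.77, adjusted p = 0.0127). On day 4, 0 of 10 genes of either list were called by limma (2 and 0 at an unadjusted p under 0.05), where 25.8% of all genes were. The caspase list without the X14 libraries of day 0 had 3 genes higher on day 4 (37.4% of all genes called), and 6 higher and 1 lower on day 8.

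Among 8 genes of the death receptor route, 3 were higher on day 8 and 0 lower, a share not above that of all genes called (45.7%). They were Tnfrsf1a, a TNF receptor (2.08 to 16 RPKM, log2 change 3.14, SE 0.65, adjusted p = 1.8e-04), Cflar, whose product holds caspase 8 back (0.118 to 1.36 RPKM from 8 and 85 summed reads, adjusted p = 7.5e-06), and Casp8 (0.244 to 1.8 RPKM from 5 and 32 summed reads, adjusted p = 0.00245). Bid, the member that caspase 8 acts on, was not called. Of 8 regulators of member genes or proteins, 2 were higher on day 8 and 2 lower (2 and 1 without the X14 libraries of day 0). Foxo3, a factor known to drive Bcl2l11, was higher (1.31, SE 0.37, adjusted p = 0.00453), as was the cochaperone gene Bag3 (3.69, adjusted p = 1e-08). Atf4, a stress factor known to act on Bbc3 and Pmaip1, was lower (−1.40, adjusted p = 1.8e-08), as was E2f1 (−0.63, adjusted p = 0.0393). Atf4 stood at 283 RPKM on day 0, 369.6 on day 4 and 109 on day 8. Its day 4 change of 0.39 was not called (limma, adjusted p = 0.0757).

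Bbc3, Pmaip1 and Bax are known p53 targets. Of 12 genes for p53 and its other targets, 2 were higher on day 8 and 1 lower. Trp53 itself went from 58.4 to 29 RPKM (log2 change −0.99, SE 0.25, adjusted p = 0.00128), while Perp rose from 12.7 to 84.6 RPKM (2.84, adjusted p = 7.8e-09) and Zmat3 from 13 to 19.2 (0.72, adjusted p = 0.0426). With the X14 libraries of day 0 left out, 3 were higher and 0 lower. Between the labels, 6 of 12 were higher in double and 0 lower, where 7.06% of all genes were higher (7 and 0 without the X14 libraries of day 0). The median difference of the list was 0.38, against −0.05 over all genes tested. The 6 were named after their values were seen. Cdkn1a, the p21 gene, measured 68.1 RPKM in double and 47.3 in single (log2 difference 0.59, SE 0.10, adjusted p = 1.2e-04), Mdm2 43.4 and 31.5 (0.47, adjusted p = 5e-05) and Eda2r 20.1 and 7.58 (1.38, adjusted p = 6.4e-07). Ccng1, Trp53inp1 and Perp differed by 0.41, 0.38 and 0.39. Eda2r is X-linked, and X-linked genes as a group differed between the labels. The member targets were not called in this comparison, with Bbc3 at 0.21 (SE 0.12, adjusted p = 0.235), Bax at 0.10 (SE 0.09, adjusted p = 0.498) and Pmaip1 at 0.00 (SE 0.15, adjusted p = 0.998).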

How the data were processed

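The study's methods name trim_galore for adapter removal, tophat or hisat2 for alignment to mm10, and SeqMonk for quantification in RPM; the submitters' processing notes name TopHat2 2.0.12. The annotation version and the strand setting of counting are not given in the sources used here. Deposited values are log2 transformed and, tested on the table, behave as log2 RPKM, with 0.9 read written for a gene without reads. Read so, 100% of values gave whole reads within 0.05 read. An RPKM of a gene without reads is given as 0. All 36 columns were matched to a library by its title.

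Genes with at least 1 RPM in at least 4 of 36 libraries were tested (14612 genes, all 10 members) with limma 3.58.1 (lmFit, eBayes with trend, two-sided, Benjamini-Hochberg over all genes tested) in R 4.3.3, without a further transformation. Days were fitted with day as the only factor, labels and lines with day and the other as covariates. A member was called at an adjusted p under 0.05. The scripts were tested on simulated data. Counting intervals are exact at 95%; intervals and floors of 3 reads cover counting error only.

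Replicate numbers pair libraries of the same line and label. Deviations of same-numbered libraries from their day's mean correlated with a median of 0.127 to 0.191 (lowest −0.578). The study's methods name no block, so the reported fits carry none, and the fit with one is given where it changes a call.

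Named genes were all members, at most 4 genes per list by the adjusted p of day 8, and 3 genes most similar in course to each of the 2 members with the largest F. Members and lists were chosen with earlier results of these data known. Alternatives were other filters, scalings and pseudocounts, voom with trimmed-mean scaling on the recovered reads, fits of 2 days, and leaving out replicates; leaving out the X14 day 0 libraries or the shallowest library was chosen after seeing the data. Values of some genes of the caspase list are not reported here.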

Additional observations from a re-analysis of the deposited data

Results flagged for a closer look

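Of 87 sets of 4 libraries (a member on a day) whose values were not all equal, 4 held a library past Dixon's 95% limit for the gap over the range. For normally distributed values chance flags about 1 in 20, a rate that does not hold for sets with most libraries at 0. All 4 were high values. Bcl2 stood at 0.143 RPKM in X18 double on day 0 and at 0.09 RPKM in X14 single on day 4, each from 1 read beside 3 libraries at 0. Bik stood at 1.49 RPKM in X14 double on day 1, from 2 reads beside 3 libraries at 0. With 3 libraries at 0 the gap is the whole range, so any read in the fourth flags such a set. Bcl2l1 stood at 10.2 RPKM (47 reads) in X18 single on day 2, where the other 3 lay between 8.35 and 8.48 RPKM. No member moved in opposite directions in the labels or the lines in all cultures from days 1 and 2 to days 7 and 8.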

How the results depend on the processing

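The count of called members moved by more than 1.5 times in 51 recomputed counts and did not in 267. Against day 0, the 3 members called on day 3 became 1 without the filter on low values, with quantile normalization, with voom on the recovered reads and when a 2-fold change was also required, and 0 when only the 2 days were fitted. The 5 of day 4 became 3 with the 2-fold requirement or with only 2 days in the fit, and the 7 of day 7 became 4 with quantile normalization. Without the X14 libraries of day 0, the 0 members of day 1 and of day 2 became 1 and 2. Between neighbouring days, the 2-fold requirement left 1 of 2 members in the step into day 4, 0 of 2 into day 6 and 0 of 1 into day 8, and a fit of only 2 days left 1 into day 6 and 0 into day 8. The 1 member of the step into day 5 became 0 when genes under a mean of 10 RPM were left out, and 2 with quantile normalization or without the shallowest library. The 2 into day 6 became 1 without a filter, with scaling to the 75th percentile, with voom and without the shallowest library. For double against single, the 3 members became 0 with the 2-fold requirement, 5 without day 0 or without only its X14 libraries, 0 within X14 (1 without day 0) and 1 within X18 (0 without day 0). The 0 members for X18 against X14 became 1 without the shallowest library, and the 0 for the label difference in the change over time became 1 without the X14 libraries of day 0. The number of genes called over the whole table moved in many of these settings too. On day 3, 1956 of 14612 genes were called in the main fit, and fewer in each setting listed for that day. On day 7 the number over all genes, 6760 in the main fit, changed little with quantile normalization, while the members went from 7 to 4. A moved count of members is therefore not read as specific to the family. The cause was not tested in these cases.

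Leaving out 1 replicate number gave 0 to 1 members on day 1 and on day 2, 0 to 2 on day 3, 3 to 5 on day 4, 4 to 7 on day 5, 6 on day 6, 4 to 7 on day 7 and 6 to 8 on day 8. The steps into days 4 and 6 gave 1 to 2, that into day 5 gave 1 and the others 0. Any change gave 7 to 9, double against single 0 to 2, and the lines and both differences in change 0. The calls over all genes moved as well, on day 3 from 1956 of 14612 to 479 without replicate 3. On days 1 to 3 more genes were called without replicate 1 than with all libraries, and fewer without replicate 2, 3 or 4. The members did not always follow, and on day 3 without replicate 1 they numbered 2 instead of 3. With the replicate number as a block, 8 members were called on day 8 (7 without the block), 9 for any change (8) and 3 in the step into day 6 (2); the added call was Bak1 each time, and no other call changed.

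Single differences that changed sign lay near 0. Bid on day 8 (0.23) turned to −0.16 with quantile normalization, −0.11 with voom and −0.07 without replicate 3 (0.48 without replicate 1). Mcl1 between double and single (−0.01) turned to 0.02 with scaling to the 75th percentile, 0.03 with voom, 0.00 without day 0, 0.09 within X14 with or without day 0, and 0.09 without replicate 3 or 4 (−0.12 without replicate 1 or 2). Pmaip1 there (0.00, just below zero) turned to 0.03, 0.01, 0.04, 0.20, 0.11, 0.09 and 0.05 with scaling to the 75th percentile, quantile normalization, without day 0, within X18, within X18 without day 0, without the X14 libraries of day 0 and without the shallowest library, and to 0.20 without replicate 1 or 2 (−0.21 without replicate 3 or 4). Of the other values of single members, 654 kept direction and side of the threshold, 90 were no longer called and 10 became called. Leaving out the X14 libraries of day 0 or the shallowest library was chosen after seeing the data. Depth limited Bcl2 and Bik, and 4 libraries a day from 4 cultures limit every comparison.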

Other observations

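Outside the p53 list, 10 of 47 tested genes of the lists around the family (21.3%) differed between the labels, where 15.7% of all genes did (limma with day and line as covariates, n = 18 libraries per label). Without the X14 libraries of day 0 there were 15 (31.9%), where 24.4% of all genes differed. The 10 were named after their values were seen. On the X chromosome, Xiap, whose product inhibits caspases, averaged 11.6 RPKM in double and 7.22 in single (log2 difference 0.68, SE 0.12, adjusted p = 1.3e-04), and Aifm1, the apoptosis-inducing factor gene, 25.9 and 17.9 (0.52, adjusted p = 0.00315). Usp9x and Huwe1, which encode a deubiquitinase and a ubiquitin ligase of MCL1, measured 39.5 and 19.6 RPKM (1.03, adjusted p = 2.4e-04) and 27.3 and 18.3 (0.56, adjusted p = 0.041) in double and single. Mcl1 itself differed by −0.01 on the same scale. On autosomes, the death receptor gene Tnfrsf10b (0.48, adjusted p = 0.00483), the stress factor Ddit3 (0.50, adjusted p = 0.0177), Bcl2l14 (0.99, adjusted p = 0.00236) and Hrk (0.71, adjusted p = 0.0458) were higher in double, and Bcl2l12 (−0.59, adjusted p = 0.00919) and Atf4 (−0.21, adjusted p = 0.0239) lower. Hrk rested on low levels, 1.28 and 0.964 RPKM. With 1 culture for each line and label, labels and cultures cannot be told apart here either.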
